A study of Mus musculus with 6 samples.

Results

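The genes described here are 10 that mark lipid-associated and tumour macrophages: Trem2, Gpnmb, Spp1, Cd68, Cd9, Fabp5, Lgals3, Lpl, Csf1r and Mertk. They were taken by symbol from the table of gene counts, where 10 of 10 were found among 24167 genes and all 10 passed the filter on low counts that left 15567 genes to test. The tissue was liver metastasis grown from 4T1, an established line of triple-negative mammary carcinoma from BALB/c mice. The injected cells carried a lentiviral scrambled hairpin (shSCR, 3 libraries) or a hairpin against Zdhhc17, a palmitoyltransferase gene (shZdhhc17, 3 libraries), both under puromycin selection. Female BALB/c mice of 6 to 8 weeks received 500000 cells hydrodynamically through the tail vein, and the liver metastases were collected under a microscope on day 10. Only the injected cells carry a hairpin. Macrophages, hepatocytes and other host cells in the dissected tissue do not. Whether a library stands for 1 mouse is not stated, and the p-values rest on the variation among these 6 samples, which may be technical in part.

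Macrophages that take up lipid and dying cells, in tumours as in fatty tissue and atherosclerotic plaques, switch on a common set of genes. TREM2 is a surface receptor for lipids and lipoproteins that signals through the adaptor TYROBP, and cells that use it typically raise genes of lysosomes, lipid uptake and matrix proteins. CSF1R is the growth factor receptor on which most macrophages depend, and MERTK is a receptor for the engulfment of apoptotic cells. Several of these genes are not restricted to macrophages: Spp1, Cd9 and Lgals3 are also known in carcinoma and biliary epithelium, Fabp5 in carcinoma cells and Lpl in fat cells. In bulk tissue, fewer cells of a type and less RNA per cell cannot be told apart.

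No difference between shZdhhc17 and shSCR metastases passed the test for any of the 10 genes. By edgeR's quasi-likelihood test 0 of 10 passed an adjusted p of 0.05, where 0 of all 15567 genes did (0%), and the smallest adjusted p among the 10 was 0.576, for Gpnmb. At an unadjusted p under 0.05 the count was also 0 of 10, against 11.4% of all tested genes by the same edgeR test (4.72% higher and 6.71% lower in shZdhhc17). In none of the 10 did the 3 libraries of one group lie apart from the 3 of the other, which held for 17.1% of tested genes (7.48% higher and 9.62% lower in shZdhhc17). Of the log2 fold changes, 5 were positive and 5 negative, with a median of -0.036, and the median over all tested genes was 0.0017. DESeq2 called 0 of 10 as well, where it called 1.17% of all genes with an adjusted p, and so did limma voom, which called 0% of all genes. In the authors' deposited table, where 0.844% of genes have a q under 0.05, the smallest q of the 10 is 0.593, for Gpnmb.

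**Figure D1:**
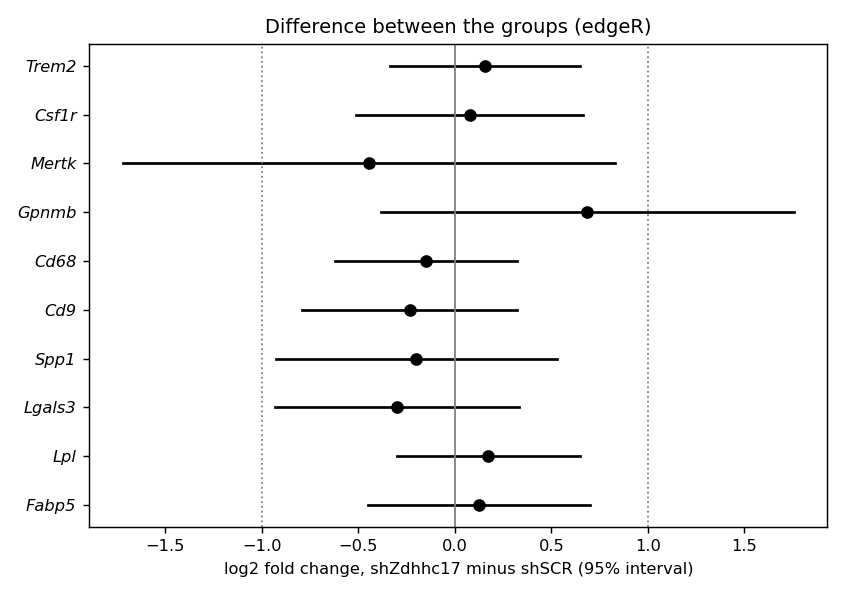
Log2 fold change of each gene, shZdhhc17 minus shSCR (x axis), with its 95% interval from edgeR's quasi-likelihood fit; dotted lines mark 2-fold either way. All 10 intervals include 0, and 8 of 10 stay inside the dotted lines, those of Mertk and Gpnmb being the exceptions.

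The absence of a call does not show that the levels were equal, but the intervals bound the difference. For 8 of 10 genes the 95% interval lay within 2-fold in either direction, as for 68.5% of all tested genes. The exceptions were Gpnmb, whose interval ran from 0.767-fold to 3.38-fold, and Mertk, from 0.304-fold to 1.78-fold. For Cd68 the interval ran from 0.650-fold to 1.25-fold and for Trem2 from 0.793-fold to 1.57-fold.

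The libraries themselves were uneven. Total counts ran from 15832837 to 19186615, and 21728 to 22269 genes were detected per library. The targeted transcript, Zdhhc17, stood at 33.4 ± 0.902 CPM (reads scaled to a TMM-normalized library of 1e+06) in shSCR and 26.5 ± 1.07 in shZdhhc17 (SD, n = 3 each), without overlap but with an edgeR adjusted p of 0.383. A copy of 18S ribosomal RNA took 2.54% of the counts in shSCR replicate 1 and at most 0.412% in the others. Hepatocyte markers, led by Alb, summed to 18457 CPM in shSCR replicate 3 and to 35363 to 53216 in the others. Markers of 15 cell types that the tissue can hold were summed per library. The sums of neutrophil markers (S100a9 the most abundant) and adipocyte markers (Cidec) were higher in each shZdhhc17 library, those of dendritic cell (Zbtb46) and stellate cell and fibroblast markers (Col3a1) were lower, and the other 11 overlapped between the groups. By the mean log2 level of their genes, the dendritic (1.85 to 2.78 in shSCR, 1.47 to 1.87 in shZdhhc17) and stellate lists (6.79 to 7.08 and 6.65 to 6.89) overlapped too. The 11 include the T cell, natural killer, B cell, cholangiocyte, sinusoidal endothelium and osteoclast lists, whose most abundant genes were Lck, Gzmb, Cd79b, Sox9, Fcgr2b and Ocstamp.

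Macrophages were present in each library. The defining markers of macrophages (9 genes, with the complement gene C1qa the most abundant) summed to 830 to 1197 CPM in shSCR and 908 to 1033 in shZdhhc17, and none was at 0 in any library. Kupffer cell markers, for the resident macrophages of the liver (7 genes, led by Cd5l), summed to 108 to 361 CPM in shSCR and 301 to 554 in shZdhhc17. The low control sum was that of shSCR replicate 3, and replicates 1 and 2 stood at 251 and 361 CPM. All 7 had a positive log2 fold change (median 0.90), with 0 past the edgeR threshold. At an unadjusted p under 0.05 in edgeR 3 of 7 were higher, against 4.72% of all tested genes. Groups lay apart for 2 of 7, both higher, against 7.48%. Monocyte markers (7 genes, led by the chemokine receptor gene Ccr2) summed to 193 to 307 CPM in shSCR and 253 to 339 in shZdhhc17. Of the macrophage markers, 7 of 9 had a negative log2 fold change (median -0.20), again with 0 past the threshold. At an unadjusted p under 0.05 in edgeR, however, 1 of the 9 was higher and 0 lower in shZdhhc17. The shares of all tested genes were 4.72% and 6.71%.

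The levels of the 10 genes spanned more than 3 orders of magnitude per length of exon. Spp1 had a mean of 1301 CPM per kb over the 6 libraries, rank 30 of the 15345 tested genes with a known length. Cd9 followed at 144 and Lgals3 at 114 CPM per kb, then Cd68 at 36.3, Csf1r at 27.9 and Fabp5 at 14.3. Mertk stood at 6.72, Lpl at 4.52, Trem2 at 3.45 and Gpnmb at 0.768 CPM per kb. The namesake receptor gene Trem2 therefore ranked 9316 and Gpnmb 13198 of 15345, while Cd68 ranked 1289. These ranks depend on the length used, the union of all annotated exons: 4.95 kb for Trem2, 10.5 kb for Lpl and 1.26 kb for Cd68. Which transcripts were expressed was not tested. By mean CPM alone Gpnmb (5.00) and Trem2 (17.0) were still the lowest of the 10. Cd68 (45.6) was then below Lpl (47.4) and Fabp5 (51.1). Spp1 alone supplied 63.0% to 76.3% of the summed CPM of the 10 genes.

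**Figure D2:**
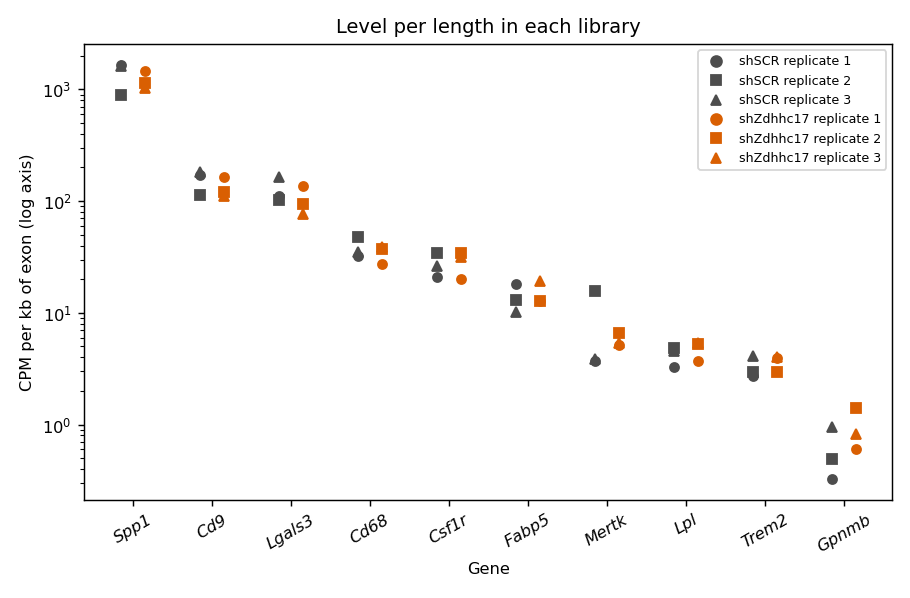
CPM per kb of exon on a log axis for each gene, ordered by its mean over the libraries, with 1 point per library (grey shSCR, orange shZdhhc17; the shape gives the replicate). Spp1 lies above all others in each library, at 892 to 1664, and Gpnmb below all others, at 0.326 to 1.41.

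Not every step in this order is larger than the spread over libraries. Per kb, Cd9 (112 to 181) overlapped Lgals3 (76.2 to 164), and Cd68 (27.2 to 47.8) overlapped Csf1r (20.1 to 34.2). Within each library, however, Cd9 stood above Lgals3 and Cd68 above Csf1r. Mertk (3.68 to 15.7) overlapped both Fabp5 (10.2 to 19.2) and Lpl (3.29 to 5.38), and Lpl overlapped Trem2 (2.71 to 4.13). For these last pairs the order also changed between libraries. The steps from Spp1 to Cd9, from Lgals3 to Cd68, from Csf1r to Fabp5 and from Trem2 to Gpnmb were free of overlap.

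Among the receptors, Trem2 (ENSMUSG00000023992.15) stood at 13.4, 14.5 and 20.4 CPM in shSCR replicates 1, 2 and 3 and at 19.6, 14.6 and 19.7 CPM in shZdhhc17 replicates 1, 2 and 3. One library of each group, shSCR replicate 3 and shZdhhc17 replicate 2, lay on the side of the other group. The means were 16.1 ± 3.77 and 17.97 ± 2.94 CPM (SD, n = 3 each), and the log2 difference was 0.16 with an SE of 0.21 (edgeR adjusted p = 0.796). Without shSCR replicate 3 the log2 fold change was 0.36 and the groups no longer overlapped, though edgeR still made no call. The gap was narrow, 14.54 CPM in shSCR replicate 2 against 14.57 in shZdhhc17 replicate 2. Without that control library the groups lay apart for 23.9% of all tested genes. Between 244 and 366 reads per library lie behind these values.

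Csf1r (ENSMUSG00000024621.17), the receptor for the growth factors CSF1 and IL-34, stood at 122, 197 and 152 CPM in the shSCR replicates against 116, 197 and 184 CPM with shZdhhc17. Each group thus held a library near 120 and one near 197, and the log2 fold change was 0.08 ± 0.25 (SE; edgeR adjusted p = 0.921). Its sign turned with the scaling: with library totals alone it was -0.077, where the median of all genes also shifted to -0.13. In the annotation an exon of Csf1r overlaps one of Hmgxb3 on the opposite strand, and whether the counting used strand is not known.

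Mertk (ENSMUSG00000014361.6) had a control library far above the other 5. It stood at 15.97, 68.0 and 16.8 CPM in shSCR replicates 1, 2 and 3, whereas the shZdhhc17 libraries stood at 22.1, 28.6 and 23.3 CPM. A single library, shSCR replicate 2, was 4.26 times as high as the lowest one, on 1301 reads. The log2 fold change was -0.45 ± 0.54 (SE; edgeR adjusted p = 0.772). Without shSCR replicate 2 it turned to 0.59 (edgeR adjusted p = 0.586), with each shZdhhc17 library above both remaining controls. The groups then lay apart for 24.3% of all tested genes. The macrophage marker sum of shSCR replicate 2, 1041 CPM, was within the range of the others, as was its Kupffer sum of 361 CPM.

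**Figure D3:**
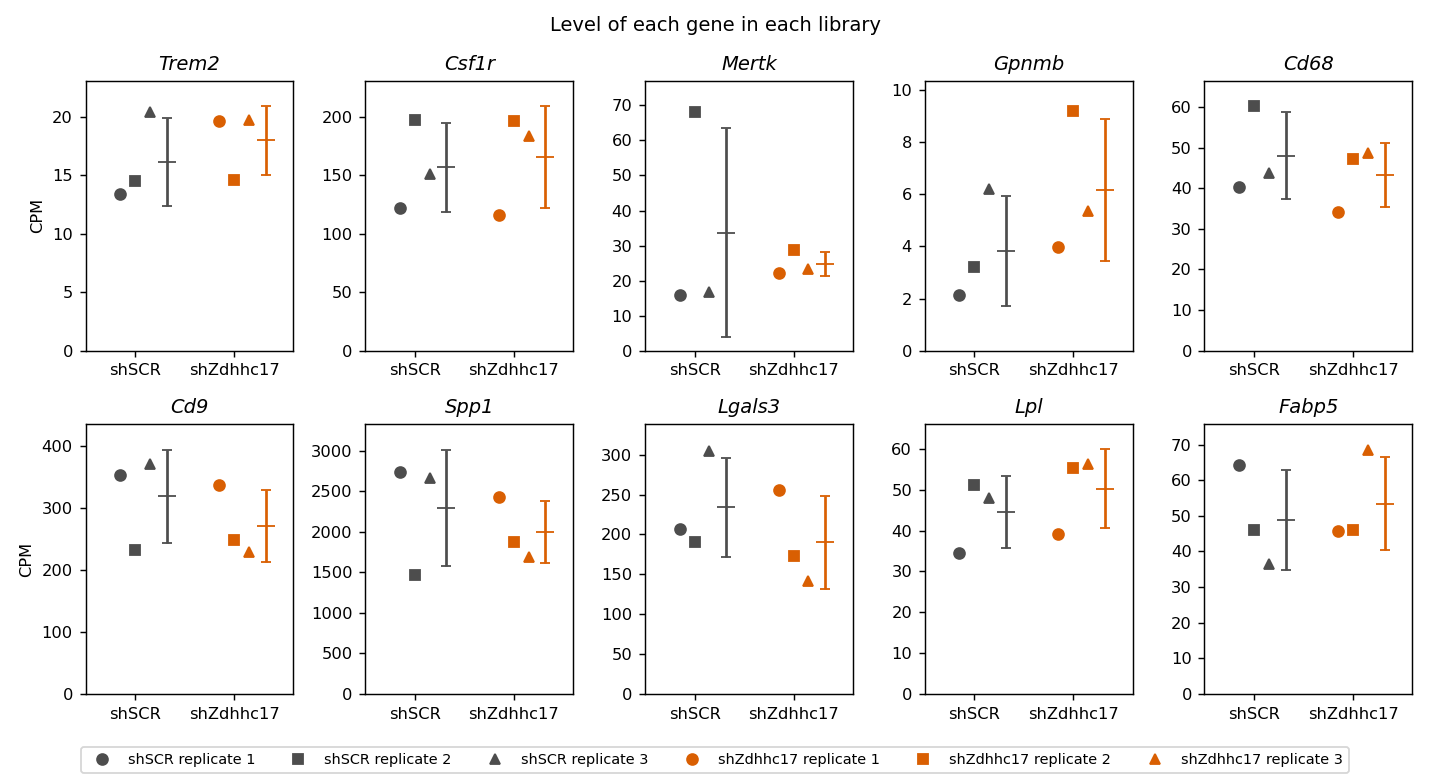
CPM of each gene in each library (linear axes from 0; shapes give the replicate), with the mean and SD of each group (n = 3) beside the points. The groups overlap in all 10 panels, and shSCR replicate 2 stands alone in the Mertk panel at 68.0 CPM.

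Among the lysosome and surface glycoproteins, Gpnmb had the largest log2 fold change of the 10 and the fewest reads. Gpnmb (ENSMUSG00000029816.11), a lysosomal and surface glycoprotein that foam cells make in quantity, stood at 2.13, 3.19 and 6.19 CPM in shSCR and at 3.96, 9.20 and 5.34 CPM in shZdhhc17. The reads per library numbered 39 to 154. The means were 3.84 ± 2.11 and 6.17 ± 2.71 CPM (SD, n = 3 each), and the log2 difference was 0.69 with an SE of 0.46 (edgeR adjusted p = 0.576). Leaving out shZdhhc17 replicate 2 lowered it to 0.28 and leaving out shSCR replicate 3 raised it to 1.21, with no call either way.

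Cd68 (ENSMUSG00000018774.14), the lysosomal glycoprotein used to stain macrophages, stood at 40.2, 60.1 and 43.6 CPM in shSCR and at 34.2, 47.1 and 48.6 CPM in shZdhhc17. Its highest library was shSCR replicate 2 and its lowest shZdhhc17 replicate 1. The log2 fold change was -0.15 ± 0.20 (SE; edgeR adjusted p = 0.798), and without shSCR replicate 2 it was 0.047.

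Cd9 (ENSMUSG00000030342.9), a tetraspanin of the cell surface and of exosomes, stood at 352, 232 and 371 CPM in shSCR and at 337, 248 and 228 CPM in shZdhhc17. In both groups the values fell into a high range above 330 and a low range under 250, so that shZdhhc17 replicate 1 kept company with shSCR replicates 1 and 3. The log2 fold change was -0.23 ± 0.24 (SE; edgeR adjusted p = 0.725). An antisense gene, Gm26728, overlaps a Cd9 exon in the annotation.

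Among the secreted proteins, Spp1 (ENSMUSG00000029304.15), which encodes the matrix protein and cytokine osteopontin, stood at 2743, 1470 and 2662 CPM in shSCR. In shZdhhc17 it stood at 2428, 1876 and 1687 CPM. The same 3 libraries as for Cd9 were high. The means were 2292 ± 713 and 1997 ± 385 CPM (SD, n = 3 each), and the log2 difference was -0.20 with an SE of 0.31 (edgeR adjusted p = 0.824). Between 25582 and 50325 reads per library lie behind these values. A same-strand gene, Gm42793, overlaps a Spp1 exon in the annotation.

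Lgals3 (ENSMUSG00000050335.18), the galectin that binds glycans on phagocytosed material and damaged lysosomes, stood at 207, 190 and 304 CPM in shSCR and at 255, 173 and 142 CPM in shZdhhc17. Again shSCR replicates 1 and 3 and shZdhhc17 replicate 1 were the highest. The log2 fold change was -0.30 ± 0.27 (SE; edgeR adjusted p = 0.685), and -0.064 without shSCR replicate 3.

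Of the lipid-handling genes, Lpl (ENSMUSG00000015568.17), the lipase that frees fatty acids from lipoproteins, stood at 34.5, 51.1 and 48.0 CPM in shSCR and at 39.2, 55.2 and 56.4 CPM in shZdhhc17. Replicate 1 was the lowest of each group. The log2 fold change was 0.17 ± 0.20 (SE; edgeR adjusted p = 0.760). Adipocyte markers (2 measured genes, Adipoq and Cidec) summed to 0.558 to 0.784 CPM in shSCR and 1.61 to 8.49 in shZdhhc17, with Adipoq at 0 in part of the libraries, and their part in the Lpl level was not tested.

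Fabp5 (ENSMUSG00000027533.11), the epidermal-type fatty acid-binding protein, stood at 64.2, 46.1 and 36.4 CPM in shSCR and at 45.9, 45.9 and 68.5 CPM in shZdhhc17. The highest library was shZdhhc17 replicate 3 and the lowest shSCR replicate 3. The log2 fold change was 0.13 ± 0.25 (SE; edgeR adjusted p = 0.861), and it turned to -0.088 without shZdhhc17 replicate 3.

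Across the libraries the 10 genes split into opposite patterns, and that split cut across the hairpins. Spp1, Cd9 and Lgals3 were highest in shSCR replicates 1 and 3 and shZdhhc17 replicate 1. Csf1r, Cd68, Lpl and Mertk had the other 3 libraries as their highest: shSCR replicate 2 and shZdhhc17 replicates 2 and 3. Of all tested genes, 11.2% share the first set of 3 highest libraries and 7.35% the second. For Mertk the order rests on shSCR replicate 2, and its other 2 libraries of that set lay near its mean. Trem2, Gpnmb and Fabp5 followed neither set. These groups of genes were formed after their values were seen and carry no test.

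Distances between standardised profiles describe the same values in another way, and they set Spp1, Cd9 and Lgals3 far from Csf1r, Cd68, Lpl and Mertk. The measure is the Euclidean distance between log2(CPM + 1) profiles scaled to mean 0 and SD 1 over the 6 libraries. On this scale 0 means the same shape, 3.16 uncorrelated profiles and 4.47 a mirror image. Spp1 lay at 0.58 from Cd9 and 1.68 from Lgals3, but at 4.29 from Csf1r, 4.27 from Cd68, 4.18 from Lpl and 4.31 from Mertk. Csf1r lay at 0.90 from Lpl, 1.06 from Cd68 and 1.87 from Mertk. Gpnmb, which did not share their set of highest libraries, lay at 1.64 from Lpl and 2.17 from Csf1r. Gpnmb lay at 2.98 from Cd68 and 3.23 from Mertk, near the 3.16 of uncorrelated profiles. Trem2 was not close to any other of the 10, the nearest being Gpnmb at 2.56. All of these profiles share the same libraries, scaling and depth.

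**Figure D4:**
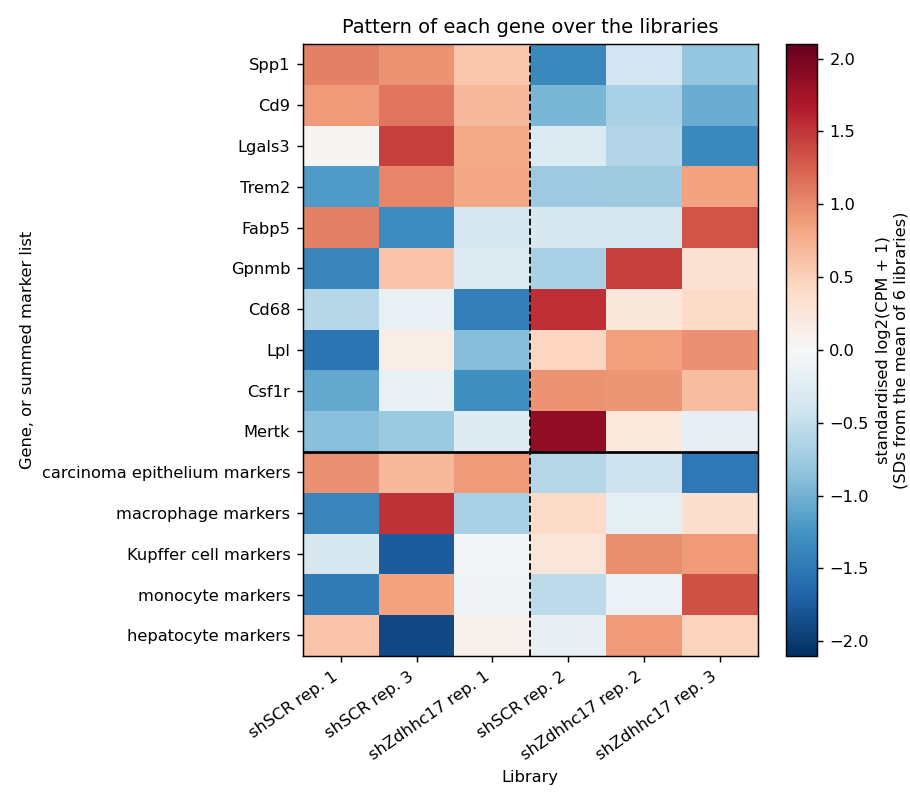
Standardised log2(CPM + 1) of the 10 genes (above the line) and of summed marker lists (below it) in the 6 libraries, which are ordered to show the split; colour gives SDs from the mean of the 6 libraries. Spp1, Cd9 and the carcinoma markers are above their means in the 3 libraries left of the dashed line, and Cd68, Lpl and Csf1r in the 3 to its right. Lgals3 is at its mean in shSCR replicate 1 (0.022 SDs), and Mertk is high in shSCR replicate 2 (1.87) but near its mean in shZdhhc17 replicates 2 and 3 (0.22 and -0.17).

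Carcinoma epithelium markers moved with the first pattern. The 11 markers, led by the keratin gene Krt18, summed to 3340 CPM in shSCR replicate 1, 3125 in shSCR replicate 3 and 3289 in shZdhhc17 replicate 1. The sums were 2289 in shSCR replicate 2, 2382 in shZdhhc17 replicate 2 and 1845 in shZdhhc17 replicate 3, and none of the markers was at 0 in any library. The 3 libraries with the highest sums of these markers were therefore the 3 with the most Spp1, Cd9 and Lgals3. Whether the marker reads came from carcinoma cells alone was not tested. The markers also leaned with the hairpin: the median log2 difference was -0.47 and 9 of 11 were negative. At an unadjusted p under 0.05 in edgeR, 3 of 11 were lower and 1 higher, against 6.71% and 4.72% of all tested genes. The mean log2 level of the markers was 7.13, 6.77 and 7.10 in shSCR and 7.08, 6.37 and 6.28 in shZdhhc17. A covariate made from it and the hairpin are therefore in part confounded. With the mean carcinoma marker level as a covariate in edgeR, a setting added after the data were seen, the log2 fold changes of Spp1, Cd9 and Lgals3 turned from negative to 0.21 ± 0.31, 0.13 ± 0.20 and 0.088 ± 0.23 (SE), and those of Csf1r and Lpl to -0.38 ± 0.17 and -0.14 ± 0.18. Cd68 stood at -0.49 ± 0.15 there (edgeR adjusted p = 0.454), and none of the 10 passed. Kupffer cell, sinusoidal endothelium and B cell markers had the same 3 highest libraries as Csf1r, while the macrophage markers were highest in shSCR replicates 2 and 3 and shZdhhc17 replicate 3. Their part in its level was not tested.

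Promoters of 5 genes in these opposite patterns are printed to show what sequence lies before their starts. They are the 250 bases upstream of the start, 5′ to 3′ on the gene's strand, from RefSeq (GRCm38.p6, another build than that of the counts). The windows are chr5:104434861-104435110 on the plus strand for Spp1, chr6:125494761-125495010 on the minus strand for Cd9, chr14:47373610-47373859 on the plus strand for Lgals3, chr11:69666171-69666420 on the minus strand for Cd68 and chr2:128698665-128698914 on the plus strand for Mertk. Capitals mark a searched motif.
Spp1: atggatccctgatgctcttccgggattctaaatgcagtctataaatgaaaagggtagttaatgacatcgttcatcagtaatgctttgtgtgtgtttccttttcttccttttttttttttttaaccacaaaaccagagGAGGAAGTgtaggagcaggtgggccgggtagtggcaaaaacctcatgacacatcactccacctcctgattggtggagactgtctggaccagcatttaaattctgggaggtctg
Cd9: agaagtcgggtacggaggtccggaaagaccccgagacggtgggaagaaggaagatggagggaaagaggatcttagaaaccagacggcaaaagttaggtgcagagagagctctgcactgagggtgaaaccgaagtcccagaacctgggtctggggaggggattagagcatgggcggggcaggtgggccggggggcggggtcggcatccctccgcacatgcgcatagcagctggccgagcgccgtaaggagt
Lgals3: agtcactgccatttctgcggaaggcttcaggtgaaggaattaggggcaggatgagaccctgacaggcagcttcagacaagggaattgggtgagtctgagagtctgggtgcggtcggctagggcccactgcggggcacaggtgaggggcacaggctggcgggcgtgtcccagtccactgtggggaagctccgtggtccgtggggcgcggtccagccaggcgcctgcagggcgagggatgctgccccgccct
Cd68: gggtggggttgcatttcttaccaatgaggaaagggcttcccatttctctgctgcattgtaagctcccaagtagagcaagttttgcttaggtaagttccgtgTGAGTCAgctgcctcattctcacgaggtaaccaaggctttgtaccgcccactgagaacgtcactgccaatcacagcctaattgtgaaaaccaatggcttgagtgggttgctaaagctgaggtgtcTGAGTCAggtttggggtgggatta
Mertk: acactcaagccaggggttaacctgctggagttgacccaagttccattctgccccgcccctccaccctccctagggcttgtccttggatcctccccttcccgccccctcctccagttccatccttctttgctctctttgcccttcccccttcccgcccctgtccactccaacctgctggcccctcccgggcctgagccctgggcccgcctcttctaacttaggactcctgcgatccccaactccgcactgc

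The motifs searched, on both strands, were GAGGAAGT (bound by the macrophage factor PU.1), TGAGTCA (AP-1), CACGTG (an E-box) and TCATGTG (a site of the MITF and TFE family). No motif overlapped another in the windows shown. The Spp1 window held GAGGAAGT, starting 113 bases before the start site, a motif found in 2.44% of all promoter windows of this length. The Cd68 window held TGAGTCA at 149 and at 24 bases before the start, a motif found in 4.46% of windows. The Cd9, Lgals3 and Mertk windows held none of the searched letters, nor did a second Spp1 window or those of Trem2 and Gpnmb. As a check, a stretch of bases after each start was looked for in the annotated transcripts of its gene. It was found for Spp1, Cd9, Cd68, Lgals3 and Trem2 but not for Mertk or Gpnmb, whose windows are less certain. Windows were found for 7 of the 10 genes (for Spp1, the first of 2 is shown), and a match describes the letters only.

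The genes whose pattern over the libraries was most like that of Trem2 were not macrophage markers. They were Shkbp1, Chchd4, Crispld2, Ccne1 and Nbl1, at distances of 0.32 to 0.52 on the same scale, among genes with a mean of at least 5 CPM. Those nearest to Gpnmb were Slc48a1, Nid1, Gxylt1, Vwf and Ctu1, at 0.40 to 0.68. Slc48a1 encodes a heme transporter of lysosomes and Vwf the von Willebrand factor of endothelium. Among the genes near to Spp1 were Tcim, Fam32a, Hspb11 and Rdm1, at 0.26 to 0.44. These lists describe 6 libraries that all profiles share, and carry no test.

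Genes that act with the 10 were examined in 10 lists. Of 102 tested genes, 0 passed the edgeR threshold. At an unadjusted p under 0.05 8 were above and 5 below the shSCR level, or 12.7% in all, near the 11.4% of all tested genes. Groups did not overlap for 15 of them, 9 higher and 6 lower, or 14.7%, against 17.1% of all tested genes.

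Partners of TREM2 (10 genes: adaptors, signalling enzymes, lipoprotein ligands and sheddases) had 4 positive and 6 negative log2 fold changes, with a median of -0.067. The adaptor gene Tyrobp stood at 50.9, 66.8 and 58.2 CPM in shSCR and at 74.97, 64.6 and 65.7 CPM in shZdhhc17, which gave a log2 difference of 0.22 with an SE of 0.14 (edgeR adjusted p = 0.558). Apoe, a lipoprotein ligand of TREM2 that hepatocytes make in bulk, had 0.37 ± 0.33. The sheddase gene Adam17 had -0.22 ± 0.11, with each shZdhhc17 library lower than each shSCR library.

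Ligands and relatives of CSF1R and MERTK (7 genes) had a median of 0.085, with 4 positive. Pros1, which encodes protein S, a ligand of MERTK also made by hepatocytes, stood at 83.1, 82.7 and 77.1 CPM in shSCR and at 101, 114 and 119 CPM in shZdhhc17. These groups did not overlap, yet the log2 fold change of 0.46 ± 0.12 (SE) did not pass (edgeR adjusted p = 0.307). Gas6, the other main ligand, had 0.72 ± 0.31 with overlapping groups, and the related receptor gene Axl -0.013 ± 0.15. Csf1, named after its value was seen, had -0.33 ± 0.17. The integrin and CD44 receptors of osteopontin (7 genes) had a median of 0.076 and 6 positive values, the most abundant being Itgb1 with 0.091 ± 0.20. Itgb5 had 0.17 ± 0.15 and Itga9 -0.098 ± 0.19.

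Other genes of lipid-laden macrophages (20 genes) had 13 positive and 7 negative log2 fold changes and a median of 0.064. They differed in direction: Mmp12, the macrophage elastase gene, stood at 105, 113 and 108 CPM in shSCR and at 62.2, 76.4 and 47.3 CPM in shZdhhc17. Its log2 fold change was -0.81 ± 0.18 (SE; edgeR adjusted p = 0.307). Nceh1, a cholesteryl ester hydrolase gene, had the opposite sign at 0.62 ± 0.16 (edgeR adjusted p = 0.315), also without overlap. Apoc1, the most abundant, had 0.046 ± 0.30.

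Lysosome genes (19 genes) had 13 positive values and a median of 0.15, and 4 of the 19 were higher in each shZdhhc17 library, which held for 7.48% of all tested genes. Gusb, for beta-glucuronidase, had 0.43 ± 0.11 (SE; edgeR adjusted p = 0.307), the membrane protein gene Lamp1 0.39 ± 0.17 and Psap, for the saposin precursor, -0.034 ± 0.27. Hepatocytes express these genes too. Transcription factors of the lipid and lysosome programme (12 genes) had a median of 0.011 and 6 values of each sign. Tfec, of the MITF family, stood at 7.79, 10.9 and 11.6 CPM in shSCR and at 14.5, 14.5 and 17.3 CPM in shZdhhc17, with 0.61 ± 0.20 (edgeR adjusted p = 0.368). Nr1h2, for the sterol sensor LXR-beta, had -0.35 ± 0.12 and Rxra 0.66 ± 0.26.

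The family lists held the other entries. Regulators of lipoprotein lipase (10 genes) had a median of 0.014, with 0.62 ± 0.30 for the inhibitor gene Angptl4, -0.56 ± 0.24 for Angptl8 and 0.014 ± 0.23 for Apoc3. The other fatty acid-binding protein genes (3 tested) were positive in 3 of 3: Fabp7 had 1.49 ± 0.28 and Fabp2 1.05 ± 0.30 (SE; edgeR adjusted p = 0.307 and 0.331), and the liver gene Fabp1 0.23 ± 0.44. Fabp7 is a low-level gene here, at 1.36 to 2.07 CPM in shSCR and 3.82 to 5.60 CPM in shZdhhc17. Galectins other than Lgals3 (5 tested) had a median of 0.20, with 0.13 ± 0.33 for Lgals1, 0.42 ± 0.25 for Lgals4 and 0.25 ± 0.17 for Lgals8. Tetraspanins and partners of CD9 (9 genes) had a median of 0.12, with 0.021 ± 0.15 for Cd81, 0.42 ± 0.26 for Cd37 and -0.26 ± 0.22 for Cd82.

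Leaving out single libraries showed how much each value leaned on one of them. Without shSCR replicate 2, the groups did not overlap for 3 of the 10 genes: Mertk, with shZdhhc17 above, and Spp1 and Cd9, with shZdhhc17 below. Without shSCR replicate 3 they did not overlap for Trem2 and Gpnmb, both with shZdhhc17 above, and without shZdhhc17 replicate 1 for Lpl (above) and Lgals3 (below). The share of all tested genes without overlap was then 24.3%, 23.9% and 36.8%. In each of these fits edgeR called 0 of the 10.

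**Figure D5:**
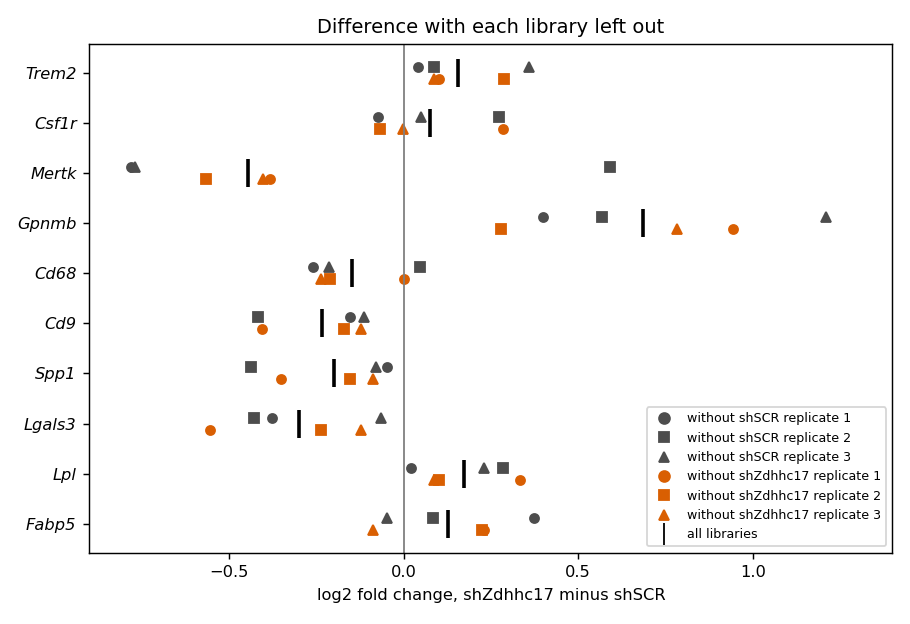
Log2 fold change of each gene, shZdhhc17 minus shSCR, with all libraries (black bar) and with each library left out (points; grey for an shSCR and orange for an shZdhhc17 library, the shape giving the replicate). Mertk moves from -0.45 to 0.59 when shSCR replicate 2 is left out, and Gpnmb ranges from 0.28 to 1.21.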

How the data were processed

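Polyadenylated RNA of dissected liver metastases was sequenced in 6 libraries, 3 for each hairpin, with a stranded kit per the labels' protocols. The tools listed, per the submitters' processing notes, are STAR 2.6.1, FastQC 0.11.8, DESeq2 1.34.0 and HTSeq, and the build is GRCm39 (mm39). Whether HTSeq counted by strand is not stated. The authors deposited raw counts per gene, without normalization (24167 genes, 0 rows without a name, 0 columns that matched no sample), and a DESeq2 table with log2 fold changes, p-values and q-values. Its ranking score was also deposited by the authors and was not used here. The column description names another contrast, while the table names this one.

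Counts were tested with edgeR 4.0.16 (TMM, filterByExpr, robust quasi-likelihood fit, two-sided) over 15567 genes with Benjamini-Hochberg adjustment at 0.05, on 4 residual degrees of freedom. The biological coefficient of variation was 0.235. SE and 95% intervals were computed by dividing each log2 change by the root of its F value. DESeq2 1.42.0 and limma 3.58.1 (voom) were alternatives, in R 4.3.3, and the procedure was tested on simulated data. Exon lengths are unions of exons of GENCODE vM21 (GRCm38). The 10 genes, the 25 lists (211 of 217 symbols matched) and the tests were chosen with earlier results of these data known. Named genes are the 10, Zdhhc17, in each pathway list the most abundant gene and the 2 with the smallest p, the most abundant gene of each cell type list, and the 5 genes with the most similar pattern to Trem2, Gpnmb and Spp1, of which 1 is not reported here. Alternatives covered normalization, filtering, the test, a replicate block, marker covariates, loss of Rn18s-rs5 and loss of each library. No replicate pair was alike within sampling noise (chi-square per gene of at least 13.6).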

Additional observations from a re-analysis of the deposited data

How the results depend on the processing

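With 3 libraries per group the spread between libraries limits what could be seen. Gpnmb had the fewest reads of the 10, 39 to 154 per library, and their part in its wide interval was not tested. None of the 10 genes passed under any of the 18 alternatives. Their median log2 fold change ran from -0.19 (library totals alone) to 0.086, and from -0.11 to 0.086 without single libraries. Signs turned for Cd68 (-0.26 to 0.047 without single libraries; 0.047 without shSCR replicate 2 and 0.00067 without shZdhhc17 replicate 1), Csf1r (-0.077 with library totals, -0.074 to 0.28 without single libraries, with -0.074, -0.066 and -0.0020 without shSCR replicate 1, shZdhhc17 replicate 2 and shZdhhc17 replicate 3), Fabp5 (-0.088 to 0.37; -0.048 without shSCR replicate 3 and -0.088 without shZdhhc17 replicate 3) and Mertk (-0.78 to 0.59; 0.59 without shSCR replicate 2). With the carcinoma marker covariate, added after seeing the data, signs turned for Cd9 (0.13), Csf1r (-0.38), Fabp5 (-0.018), Lgals3 (0.088), Lpl (-0.14) and Spp1 (0.21). The cause was not tested. Genes with non-overlapping groups among the 10 numbered 0 to 3 without single libraries. Over all genes, calls numbered 3 with no filter, 201 by DESeq2, 4 with the hepatocyte covariate and 0 to 1 without single libraries (1 without shSCR replicate 3), against 0. With the replicate number as a block, 0 genes passed and Mertk stood at -0.10, near the -0.11 of limma voom without a block. Same-numbered libraries correlated at -0.059, 0.32 and -0.046 in their deviations from the group means, and only number 2 matched its own best, so the numbers were not taken to pair them.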
